A study of Mus musculus with 9 samples.

Results

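Cytosolic ribosomal protein genes were followed across 9 libraries of mouse cortex RNA. Genes were taken from the deposited table by symbol: those starting with Rpl or Rps and a digit, together with Rplp0, Rplp1, Rplp2 and Rpsa, without the S6 kinases and without pseudogene symbols. A mean CPM (counts per 1000000 counts of a library) of at least 1 over the 9 libraries was also required. Of 34714 rows, 89 met the rule on symbols and 85 of them reached the CPM minimum. The 4 that did not were the paralogs Rpl10l (0 CPM), Rpl32l (0.0271 CPM), Rpl39l (0.0826 CPM) and Rpl3l (0.46 CPM). By name, 43 members are proteins of the large subunit, 3 form its stalk, 31 belong to the small subunit and 6 are paralogs or retrocopies of another member. The remaining 2, Rps19bp1 and Rps23rg1, are named after a ribosomal protein but are not ribosomal proteins themselves. All 85 had enough counts to be tested.

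The cytosolic ribosome joins a small subunit, which reads the mRNA, to a large subunit, which forms the peptide bonds, and each ribosomal protein other than those of the stalk is present once in a ribosome. Most ribosomal protein mRNAs are short and abundant and begin with a C followed by a run of pyrimidines, the terminal oligopyrimidine (TOP) motif, through which mTORC1 and La-related proteins control their translation and stability. In the brain these mRNAs are found in cell bodies, in neuronal processes and in glia, and their levels differ between cell types.

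The 3 groups had 3 libraries each: naive animals, animals with EAE and no drug, and EAE animals given Au18(L-NIBC)14, a gold nanocluster with cysteine-derived ligands, which are called treated below. EAE stands for experimental autoimmune encephalomyelitis, in which immune cells attack brain and spinal cord and which serves to model multiple sclerosis. The labels give cortical tissue, total RNA, oligo(dT) selection and a number from 1 to 3 for the brain. The sources used here do not give mouse strain, sex, age, the way EAE was induced, dose, schedule or stage of disease. No label says whether a brain was pooled, so the p-values measure the spread between these samples. Total counts per library ran from 26972179 to 45243553. Summed neuronal markers were between 9715 and 11841 CPM in every library. Markers of the choroid plexus summed to 1364 CPM in EAE replicate 1 and to between 165 and 350 CPM in the other libraries. In those other libraries 1 marker, Enpp2, made up most of the sum. Ttr, another of these markers, was at 828, 8.34 and 85.3 CPM in EAE replicates 1, 2 and 3. It was at 2.66 to 32.4 CPM in naive and 1.45 to 7.30 CPM in treated libraries. Those of the striatum were lowest in naive replicate 3 (229 CPM) and highest in naive replicate 1 (1687 CPM). Myelin markers were lowest in treated replicate 1 (2939 CPM) and highest in treated replicate 3 (9668 CPM).

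The starts of the genes show the motif for which the family is known. RefSeq promoter windows of GRCm38.p6, from 250 bases before to 50 bases after each start, were available for 65 members and for 27025 genes in all. A C followed by at least 4 further pyrimidines, on the gene's own strand and beginning within 5 bases of an annotated start, was present in 31 of the 65 members (47.7%) and in 21.2% of all genes. With the search widened to 5 bases before and 44 after the start, it was present in 58 members (89.2%) and in 58% of all genes. Windows of 30 bases are printed for 5 members whose tract begins within 5 bases of an annotated start, 3 with some of the clearer differences between groups (Rps6, Rps9, Rpl18) and 2 with small ones (Rpl28, Rpl38). Capitals mark the tract, and all are written 5′ to 3′ on the gene's strand.

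Rps6, chr4:86857347-86857376, minus strand: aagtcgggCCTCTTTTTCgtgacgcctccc

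Rps9, chr7:3704028-3704057, plus strand: cgccttgtCTCTCTTTgtctcgggcctgag

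Rpl18, chr7:45718064-45718093, plus strand: gcaggccgCTCTTTCCCCgcccactccggc

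Rpl28, chr7:4792955-4792984, plus strand: tctcgtgtCTCTCTTTCCgtctccggccgc

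Rpl38, chr11:114668572-114668601, plus strand: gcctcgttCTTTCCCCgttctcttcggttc

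All 5 tracts are 8 to 10 pyrimidines long. The median log2 fold change of EAE against naive, described below, was 0.19 in the 31 members with such a tract and 0.16 in the other members with a window. Among exact strings searched in the same windows, CTTTCC on the gene's strand occurred in 26 members (40%) against 16% of all genes. Its longer form CTCTTTCC, which contains it, occurred in 8 (12.3%) against 1.76%. CCGGAAG, a core bound by ETS factors, occurred on either strand in 25 members (38.5%) against 9.93%, and AAGATGGC, a core bound by YY1, on either strand in 6 (9.23%) against 3.19%. TATAAA, the TATA box, was no more frequent in members (6, or 9.23%) than in all genes (9.77%). These matches describe the sequence and say nothing of which factors were bound.

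Levels of different genes were compared as mean CPM over all libraries per kilobase of the shortest annotated transcript holding the full coding sequence. On this scale the 3 most abundant members were Rplp1, a stalk protein, at 530 CPM per kb, Rps15, at 417, and Rpl3, a protein near the peptidyl transferase centre, at 313. The 3 least abundant were Rps27l (11.2 CPM per kb), Rps19bp1 (15.1) and Rpl37rt (23.2), a paralog, a binding protein of Rps19 and a retrocopy. The coefficient of variation over the 9 libraries had a median of 9.42%. It was lowest for Rps7 (5.2%) and Rpl22 (5.21%) and highest for Rps27a (42.9%), Rpl17 (32.5%) and Rps27rt (30.2%).

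Ribosomal protein mRNAs were slightly more abundant in EAE cortex than in naive cortex, across both subunits. Their CPM, summed over the 85 members, were 9253, 9650 and 9011 in the naive libraries, 10289, 10981 and 10413 in the EAE libraries and 8813, 9685 and 9463 in the treated libraries. Every EAE library lay above every naive and treated library. The means were 9304 ± 323 CPM in naive, 10561 ± 369 CPM in EAE and 9320 ± 454 CPM in treated cortex (SD, n = 3), so that the EAE mean was 13.5% above the naive mean. EAE replicate 2 was the highest library for 52 members, and an EAE library was the highest for 80 of 85, against 36.6% of all genes tested. In bulk tissue, more cells rich in these mRNAs and more mRNA per cell cannot be told apart.

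**Figure D1:**
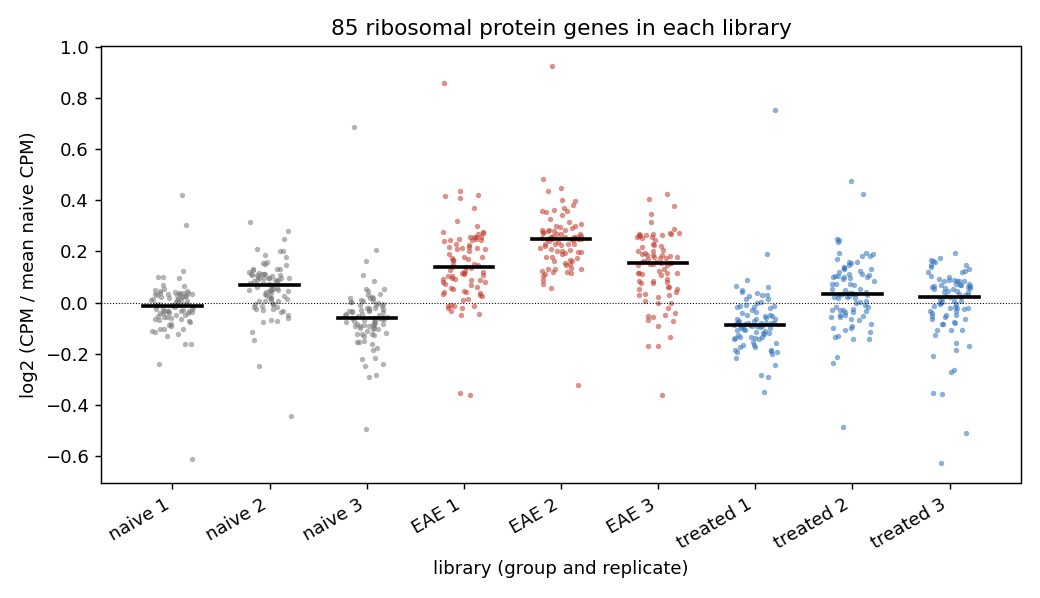
Each point is 1 of the 85 genes in 1 library, as log2 of its CPM over its mean naive CPM, and the bar is the median of the library. The medians are 0.139, 0.248 and 0.154 in the EAE libraries and between -0.0852 and 0.0676 in the naive and treated libraries.

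As single genes the differences were small and 1 passed the main test. The median log2 fold change of EAE against naive was 0.18 over the members and -0.01 over all 18644 genes tested, and 83 of the 85 members were above 0, against 49% of all genes. In edgeR's quasi-likelihood test with Benjamini-Hochberg adjustment over all genes, 1 member rose (Rps14) and none fell, beside 0.735% of all genes called higher and 0.252% called lower. The unadjusted p was under 0.05 for 36 members, all higher in EAE, against 9.42% of all genes in that direction. The 3 EAE libraries lay above the 3 naive ones in 44 members (background 12.2%) and below them in 0 (background 11.8%). In 71 members the fold was under 1.2 either way. DESeq2 called 12 members higher (background 3.78%), among them Rps4x, Rps6, Rps9, Rps14, Rps21, Rps23, Rpl7, Rpl11, Rpl18, Rpl24 and Rplp0.

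In the small subunit, 30 of 31 proteins had a log2 fold change above 0 in EAE against naive, with a median of 0.19. In 17 the EAE libraries lay above all naive ones (background 12.2%). Rps14, a protein of the platform of the small subunit, lies on chromosome 18 (60774596 to 60778546, RefSeq GRCm38.p6). Its CPM was 160, 170 and 164 in naive, 223, 230 and 218 in EAE and 148, 183 and 179 in treated cortex. All EAE values were above all others, and the naive and treated values overlapped. The log2 fold change of EAE against naive was 0.44 ± 0.09 (SE, adjusted p = 0.0468 in edgeR). It remained between 0.42 and 0.46 over 21 alternatives, whose adjusted p ranged from 0.000174 with DESeq2 to 0.18 without naive replicate 1. The call was lost on leaving out any of the 6 EAE and naive libraries or treated replicate 2.

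Rps21 was at 91, 103 and 94 CPM in naive, 124, 127 and 116 CPM in EAE and 82.6, 95 and 98.8 CPM in treated cortex. Its EAE values also lay above all others (log2 fold change 0.35 ± 0.08, edgeR adjusted p = 0.0775). Rps23, a protein of the decoding centre, had 105, 110 and 110 CPM in naive, 131, 138 and 131 in EAE and 105, 105 and 114 in treated cortex. The separation was again complete, with a log2 fold change of 0.30 ± 0.06 and an edgeR adjusted p of 0.0596. Rps6, the substrate of the S6 kinases, was at 187, 191 and 193 CPM in naive, 211, 227 and 230 in EAE and 178, 195 and 189 in treated cortex (log2 fold change 0.23 ± 0.07 against naive, edgeR adjusted p = 0.123). Rps4x, encoded on the X chromosome, had a log2 fold change of 0.27 (edgeR adjusted p = 0.0831), and Rps19, mutated in Diamond-Blackfan anaemia, one of 0.21 (edgeR adjusted p = 0.228), both with groups that did not overlap. Other small subunit genes barely differed. Rpsa, also known as the laminin receptor, was at 284 to 305 CPM in naive and 301 to 338 CPM in EAE libraries, and Rps16 had a mean of 102 ± 7.41 CPM in naive and 103 ± 9.15 CPM in EAE cortex (SD, n = 3).

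**Figure D2:**
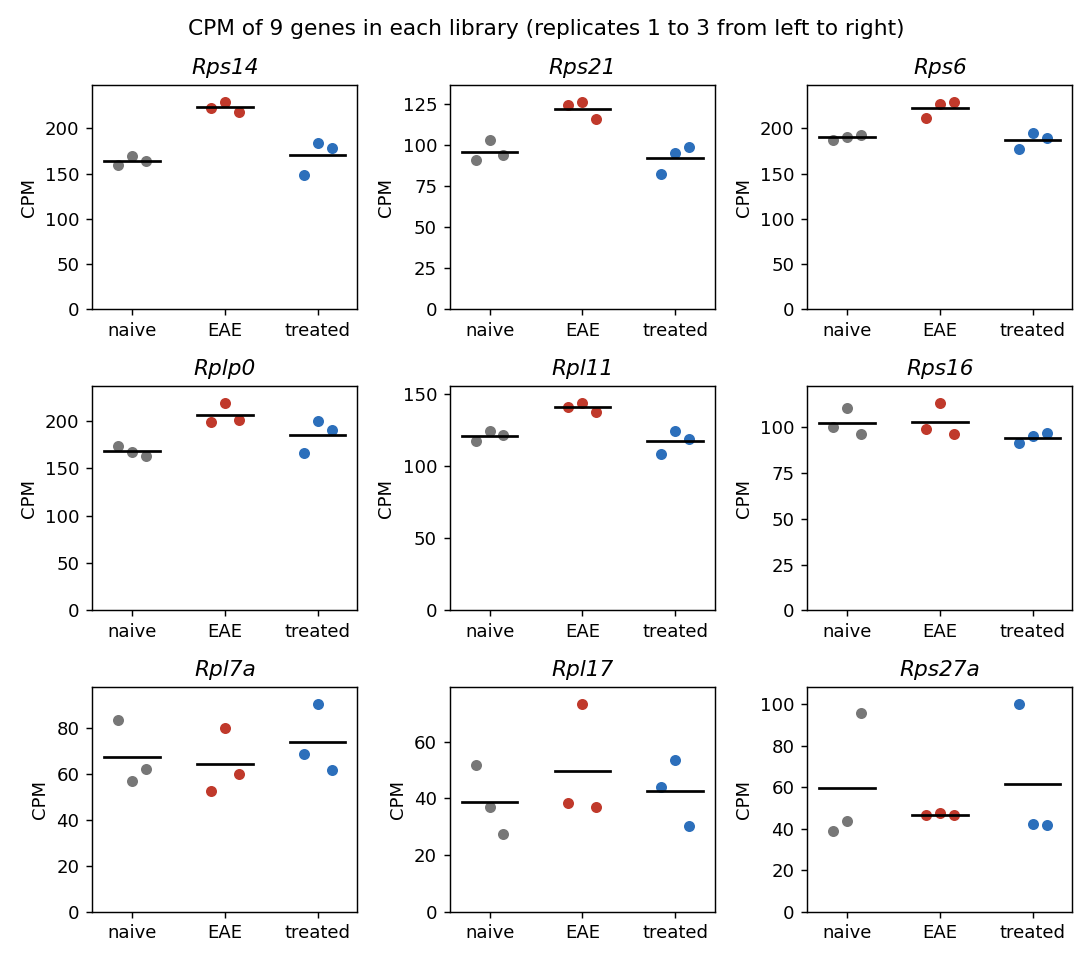
CPM of 9 genes in each library, with replicates 1 to 3 from left to right in each group, the group mean as a bar and each axis starting at 0. In Rps14, Rps21, Rps6 and Rpl11 the EAE points lie above all others, while in Rpl7a, Rpl17 and Rps27a single libraries of different groups stand far from the rest.

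In the large subunit and stalk, 45 of 46 genes were above 0 with a median log2 fold change of 0.18. In 22 the EAE libraries lay above all naive ones (background 12.2%). Rpl11 and Rpl5, which join the 5S rRNA in the ribosome and bind Mdm2 when free, both had EAE values above all naive values. Rpl11 was at 117, 124 and 122 CPM in naive, 141, 144 and 137 in EAE and 108, 124 and 119 in treated cortex (log2 fold change 0.22 ± 0.07 against naive, edgeR adjusted p = 0.148). Rpl5 was at 178, 176 and 171 CPM in naive, 190, 203 and 190 in EAE and 170, 178 and 180 in treated cortex (0.15 ± 0.06, edgeR adjusted p = 0.26). Rplp0, the base of the stalk that recruits elongation factors, was at 174, 168 and 163 CPM in naive, 199, 219 and 201 in EAE and 166, 200 and 190 in treated cortex. Its EAE values lay above the naive ones, but 1 treated value fell among them (0.30 ± 0.08 against naive, edgeR adjusted p = 0.111). The other stalk proteins, Rplp1 and Rplp2, had overlapping groups, with log2 fold changes of 0.13 and 0.23. Rpl10a and Rpl3 had log2 fold changes of 0.16 and 0.23 with groups that did not overlap. Rpl38, whose loss in mice impairs the translation of Hox mRNAs, had means of 42.4 ± 7.03 CPM in naive and 43.8 ± 6.29 CPM in EAE cortex (SD, n = 3), and Rpl22 had 78 ± 4.61 and 81.5 ± 1.28 CPM. The ratio of summed small subunit to summed large subunit CPM was 0.679 ± 0.0164 in naive, 0.694 ± 0.00964 in EAE and 0.68 ± 0.0152 in treated cortex (SD, n = 3), and its values overlapped between the groups.

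The 6 paralogs and retrocopies were all above 0 in EAE against naive, with a median log2 fold change of 0.17. In 3 of them (Rps27l, Rpl7l1 and Rpl36al) the EAE libraries lay above all naive ones (background 12.2%). Rps27l, a p53 target, was at 5.57, 4.95 and 5.89 CPM in naive, 6.39, 6.66 and 5.91 in EAE and 4.3, 4.96 and 5.55 in treated cortex. Its lowest EAE value was barely above the highest naive value. Rpl7l1 was at 37.5 to 38.6 CPM in naive, 40.6 to 42.3 in EAE and 36.1 to 38.2 in treated cortex (log2 fold change 0.12 ± 0.06, edgeR adjusted p = 0.344). Rpl22l1, a paralog of Rpl22 at a mean of 36 ± 5.7 CPM in naive and 37.9 ± 2.37 CPM in EAE cortex, and Rpl39, whose paralog Rpl39l was below the CPM minimum, at 36 ± 4.68 and 42.4 ± 5.64 CPM (SD, n = 3), had overlapping groups.

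For 2 retrocopies the counts cannot be assigned with certainty. Over 341 aligned bases the transcripts of Rps27rt and its parent Rps27 are 100% identical, and those of Rpl37rt and Rpl37 are 99.7% identical over 344 bases. RefSeq windows at the starts of Rps27 and Rps27rt show it. Capitals mark the 22 shared bases in these windows, the beginning of a shared run of 38.

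Rps27, chr3:90213626-90213655, minus strand: tttcgctcCTTTCCGGCGGTGACGACCTCC

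Rps27rt, chr9:114982718-114982747, minus strand: atcccttgCTTTCCGGCGGTGACGACCTCC

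Rps27rt was at 11.2, 12 and 14.4 CPM in naive, 22.7, 14.2 and 12.1 in EAE and 12.5, 11.7 and 8.12 in treated cortex. Its log2 fold change of 0.38 ± 0.24 in EAE against naive (edgeR adjusted p = 0.488) was 0.08 without EAE replicate 1. Rps27 was at 49.5, 55 and 41.1 CPM in naive, 55.4, 58.2 and 50.4 in EAE and 48.1, 57.6 and 45.8 in treated cortex, with overlapping groups. Reads shared between the pair can have gone to either gene.

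Only Rps27a and Rpl7a were below 0 in EAE against naive, and their libraries did not follow the groups. Rps27a, which encodes ubiquitin fused to a small subunit protein, was at 95.6 CPM in naive replicate 3 and 100 CPM in treated replicate 1, and between 38.9 and 47.5 CPM in the other 7 libraries. Rpl7a was highest in treated replicate 2 (90.5 CPM), naive replicate 1 (83.3) and EAE replicate 2 (79.9) and between 52.5 and 68.8 CPM elsewhere. Rpl17 was at 73.4 CPM in EAE replicate 2 and from 27.5 to 53.7 CPM in the others, so that its log2 fold change of 0.35 had an SE of 0.34. Near-identical pseudogenes, at 90% identity or more over at least 80% of the coding length, are annotated in GENCODE for 79 members, with a median of 8 per member. Added over the members they come to 1006, where a pseudogene matching several members is counted for each. Of these, 18 have a row in the table, and 1 is the member Rpl37rt, matched to Rpl37. For Rps18, 0 of 11 copies were found with a row, although Rps18-ps4 has one, at 20.2 CPM beside 44.5 CPM for Rps18. The count of rows is therefore incomplete. For Rpl37rt itself the rule on length did not hold, as a match of 74 bases to Rps20 passed. Rpl7a has 76 such pseudogenes, Rpl17 has 49 and Rps27a has 13. Their part in these values was not tested. The median log2 fold change of EAE against naive was 0.20 in the 6 members for which no such copy was found and 0.14 in the 11 with at least 20. It was 0.19 in the 66 members for which no exon overlap on the opposite strand was found and 0.17 in the 19 with such overlap. Rps23rg1, which has no GENCODE entry under its symbol, could be searched for neither and is counted in the 6 and the 66. Rps19bp1, also among the 6, is likewise no ribosomal protein.

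Ribosomal protein mRNAs were lower in treated than in untreated EAE cortex when summed, in each of the 3 treated against each of the 3 EAE libraries, although no single member passed the main test. The treated mean of the summed CPM was 11.7% below the EAE mean. This comparison shares the EAE libraries with the first, so that the 2 directions are not independent. The median log2 fold change of treated against EAE was -0.17 over the members and 0.00 over all genes, and 2 of 85 members were above 0, against 50.6% of all genes. By edgeR 0 members were called, where 0.129% of all genes were called lower, while 42 had an unadjusted p under 0.05, all lower in treated cortex (7.65% of all genes in that direction). DESeq2 called 11 members lower (background 2.13%), namely Rps6, Rps9, Rps14, Rps19, Rps21, Rps23, Rpl7, Rpl11, Rpl18, Rpl24 and Rpl37. The treated libraries lay below the EAE libraries in 41 members (background 9.28%) and above them in 0 (background 9.93%).

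By subunit the medians were -0.20 for the small subunit and -0.15 for the large subunit with stalk. The treated libraries lay below the EAE libraries in 16 of 31 and in 21 of 46 genes (background 9.28%). Rps21 had a log2 fold change of -0.41 ± 0.08 (edgeR adjusted p = 0.0919), Rps14 of -0.39 ± 0.09 (0.0953) and Rps23 of -0.31 ± 0.06 (0.0914), and no other member was under 0.1. Rps6 was at -0.25 and Rpl11 at -0.26, both with groups that did not overlap. The 6 paralogs had a median of -0.26, and Rps27rt the lowest value of all, -0.59 ± 0.24 (edgeR adjusted p = 0.299), which was -0.29 without EAE replicate 1. Rps27a (0.39) and Rpl7a (0.20) were the members above 0, and Rps19bp1 was level at -0.00. Treated replicate 1 was the lowest library for 43 of the 85 members. Without it the median over the members was -0.16 in place of -0.17.

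**Figure D3:**
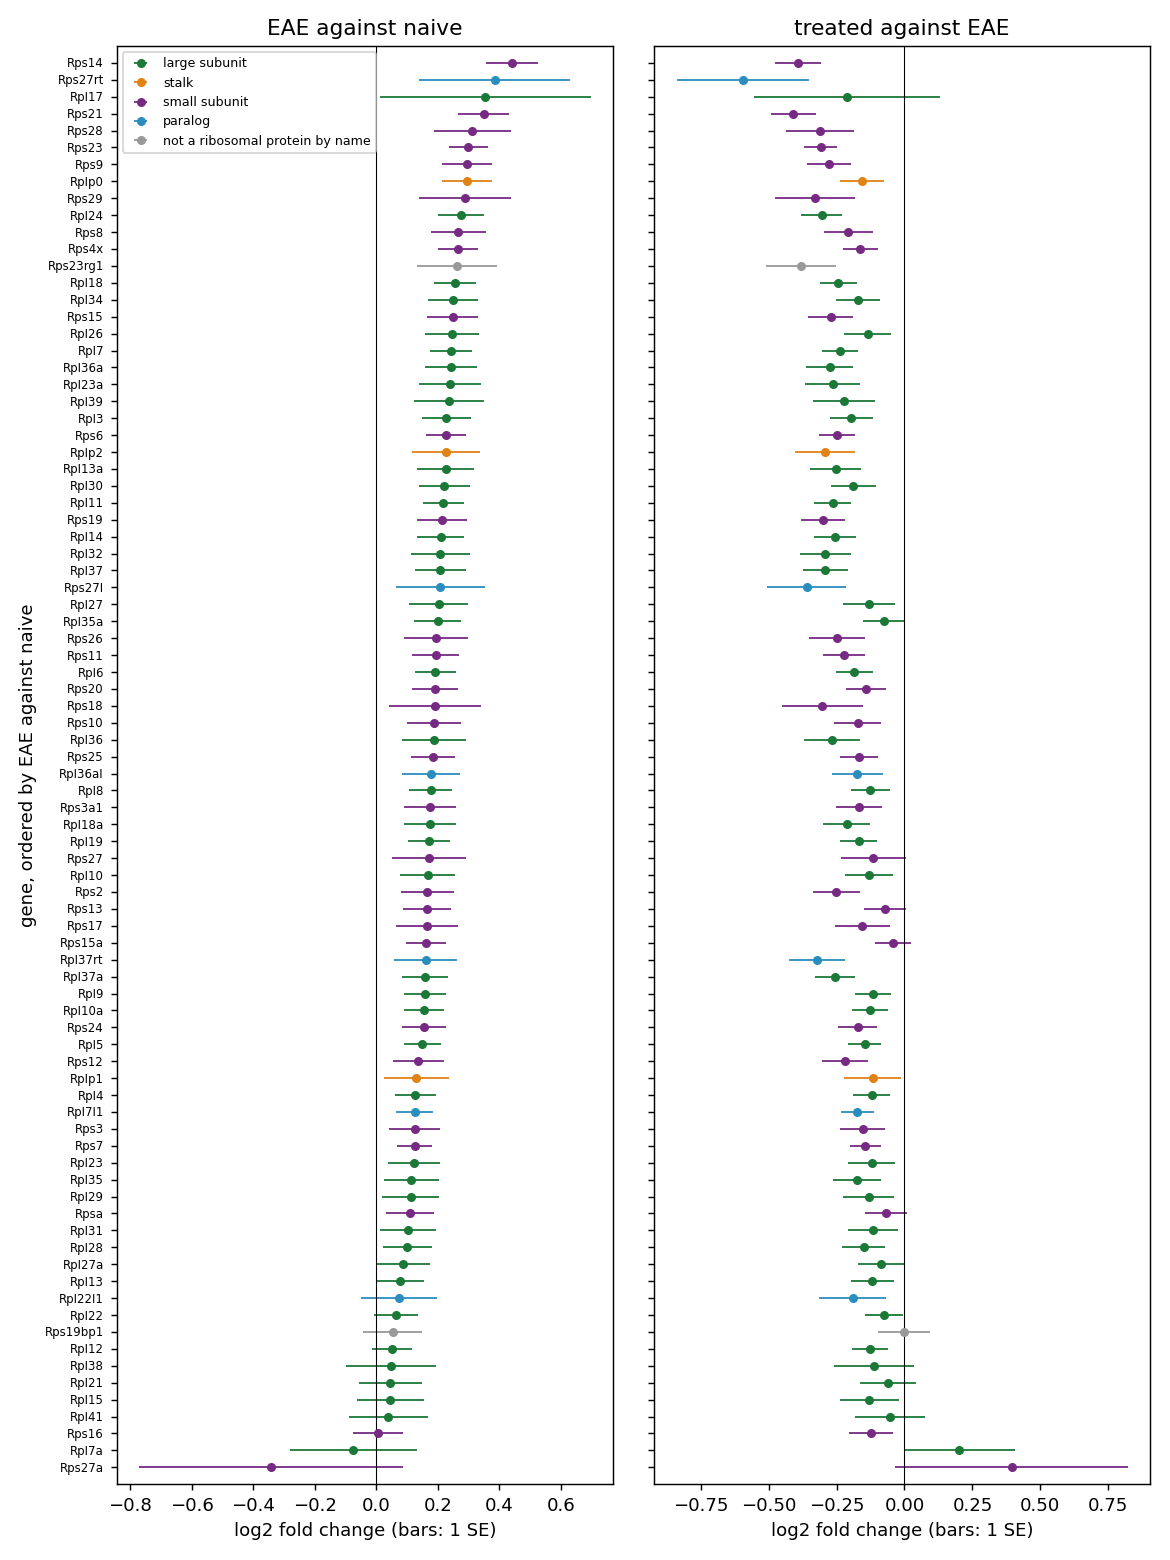
Log2 fold change of 84 of the 85 genes with 1 SE, ordered by EAE against naive (left) and in the same order for treated against EAE (right), coloured by role. Almost all points lie between 0 and 0.4 on the left and between -0.4 and 0 on the right, with Rps27a and Rpl7a on the other side in both panels, which share the EAE libraries.

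Treated and naive cortex differed little in these mRNAs. The summed CPM differed by 0.171% between the means, the median log2 fold change was -0.01 over the members and 0.01 over all genes, and 41 members were above 0 (53.6% of all genes). No member passed edgeR's test, DESeq2's or an unadjusted p of 0.05, beside 0% of all genes called by edgeR, 1.71% at the unadjusted p and 0.0161% (3 genes) by DESeq2. The groups did not overlap in 1 member that was higher when treated, Rps15a (background 3.51%), and in 1 that was lower, Rps23rg1 (background 2.74%). Rps15a was at 110, 110 and 114 CPM in naive and 118, 127 and 117 CPM in treated cortex, and its EAE values of 120, 120 and 132 CPM overlapped the treated ones. The members with the highest log2 fold changes in this comparison were Rpl17 (0.14), Rplp0 (0.14) and Rpl7a (0.13), and those with the lowest Rps27rt (-0.21), Rpl37rt (-0.16) and Rps27l (-0.15).

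In 33 of the 85 members all EAE values were above all naive and all treated values, as they were in 5.84% of all genes tested. Other mRNAs known for a TOP motif lay mostly in the same direction. Of 23 such genes, most of them for translation and related proteins, 0 passed edgeR's test. Among the 23, 18 were above 0 in EAE against naive (median 0.12). In 10 the EAE values were above all naive ones (background 12.2%), and in 1 they were below (background 11.8%). Fau, which encodes a ribosomal protein fused to a ubiquitin-like protein and falls outside the rule on symbols, had a log2 fold change of 0.25 (edgeR adjusted p = 0.218). Rack1, a scaffold on the small subunit, had 0.26 (0.0957), and the elongation factors Eef1a1 and Eef2 had 0.17 (0.312) and 0.18 (0.456). In treated against EAE the 23 genes had a median of -0.07, with 0 called.

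The other genes of protein synthesis were not higher as groups. Median log2 fold changes of EAE against naive were -0.06 over 31 other translation factors, -0.03 over 44 ribosome biogenesis genes, -0.02 over 11 genes of ribosome rescue and -0.07 over 78 mitochondrial ribosomal protein genes. In each of these lists 0 genes were called by edgeR in either comparison with EAE. Respiratory chain subunits, which are also short and abundant mRNAs, had a median of -0.02 over 80 tested genes, with 0 called. A further list held 833 other genes with a transcript of up to 1000 bases. Its length is that of 1 annotated transcript chosen per gene, so genes that also have longer transcripts can be among them. These 833 had a median of -0.02, with 4 called higher (0.735% of all genes) and 4 lower (0.252% of all genes). Of 18 genes of mTORC1 and the S6 kinases, Ddit4, an inhibitor of mTORC1, rose in EAE (log2 fold change 1.44 ± 0.08, edgeR adjusted p = 0.000179) and fell in treated against EAE (-1.25 ± 0.08, edgeR adjusted p = 0.000623). Its CPM was 25.5, 27.3 and 28.1 in naive, 71.1, 80.2 and 67.8 in EAE and 29.4, 31.3 and 31.4 in treated cortex. The other 17 were not called, and the 18 had a median of 0.07 in EAE against naive.

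**Figure D4:**
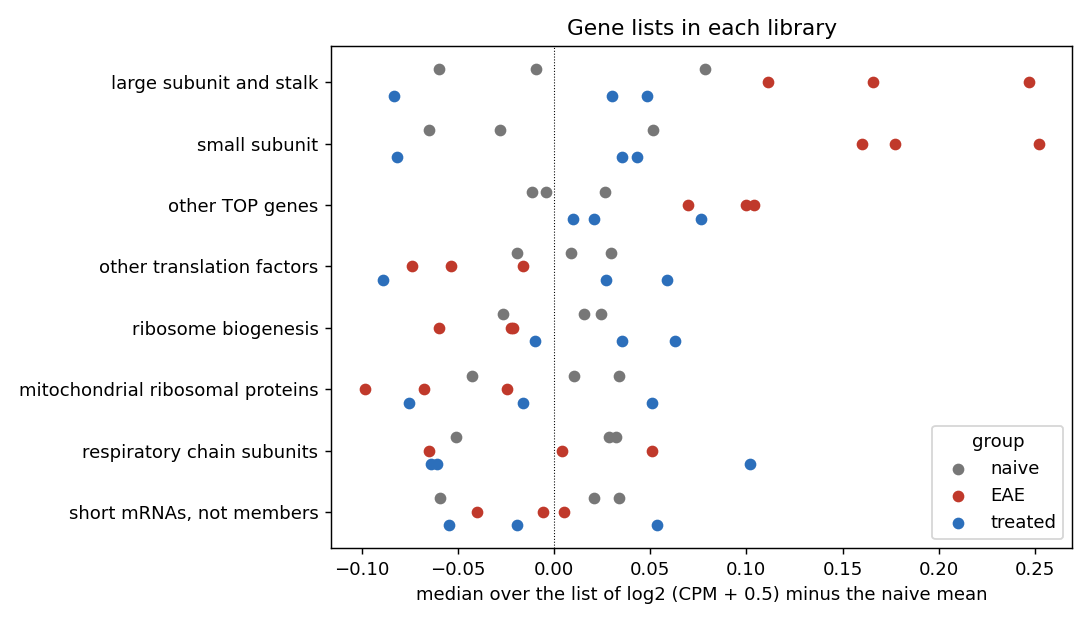
Median over each gene list of log2 (CPM + 0.5) minus the naive mean, 1 point per library. In both subunits the EAE points (0.111 to 0.252) lie to the right of all naive and treated points, whereas for translation factors, biogenesis, mitochondrial ribosomal proteins, respiratory chain and short mRNAs the EAE and naive points overlap.

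Markers of other cells followed the groups only in part. Leukocyte sums were higher in every EAE library than in every naive one, while those of microglia and astrocytes overlapped. Endothelial sums were higher as well, but barely so in EAE replicate 1. By the median log2 deviation of its genes from the naive mean, the endothelial list was at -0.122 in that library. The naive libraries were at -0.0567 to 0.03. In each of these lists the treated sums overlapped the EAE sums. Of 10 leukocyte markers 7 had enough counts to be tested, all 7 were above 0 in EAE against naive, and S100a4 rose. Cd3e, Cd3d and Ms4a4b were too low to be tested, Cd3d being at 0 in 5 of 9 libraries. The tested leukocyte markers summed to between 8.56 and 9.68 CPM in naive, 16.1, 54.5 and 114 CPM in EAE and between 9.04 and 18.3 CPM in treated cortex. Microglial markers, of which 9 of 10 were above 0 and 0 called, summed to between 342 and 427 CPM in naive, 401, 839 and 548 CPM in EAE and between 398 and 500 CPM in treated cortex. The member sums were in the order of EAE replicates 2, 3 and 1, as were the microglial sums, whereas the leukocyte sum was highest in replicate 3 and that of the choroid plexus in replicate 1. Astrocyte markers (4570, 6603 and 5583 CPM in EAE replicates 1, 2 and 3, 4618 to 5182 in naive and 4039 to 5709 in treated cortex) and endothelial markers (349, 489 and 390, 336 to 344 and 328 to 474 CPM) were also in the order of EAE replicates 2, 3 and 1. Within naive and within treated cortex, the microglial sums too were in the order of the member sums. Those of astrocytes and endothelium were in another order there. Without EAE replicate 1, the median log2 fold change of the members in EAE against naive was 0.19 and EAE values were above all naive ones in 54 of 85, beside 17.5% of all genes. Without EAE replicate 2 these values were 0.16 and 44, beside 16.5% of all genes.

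Among the other marker lists, that of red blood cells was lower in EAE. Its 5 genes summed to between 131 and 175 CPM in naive, 7.16 and 23.6 in EAE and 102 and 380 in treated cortex. All 5 were below 0 in EAE against naive (median log2 fold change -3.31), where Hba-a2 and Hbb-bs, globin genes, fell. In treated against EAE all 5 were above 0 (median 4.20) and Hba-a2 rose. The 10 meningeal fibroblast markers were all above 0 in EAE against naive (median 0.97), with 0 called. They summed to between 72.3 and 119 CPM in naive, 212, 314 and 113 CPM in EAE and between 48.8 and 203 CPM in treated cortex. The 10 choroid plexus markers were all above 0 as well (median 1.73), with 0 called, and summed to between 216 and 299.8 CPM in naive, 1364, 211 and 350.4 CPM in EAE and between 165 and 280.1 CPM in treated cortex. In treated against EAE these 10 were all below 0 (median -2.08), with 0 called. Of 10 astrocyte markers 7 were above 0 in EAE against naive, and Gjb6, a gap junction gene, rose (log2 fold change 1.33 ± 0.15, edgeR adjusted p = 0.0114). In treated against EAE Gjb6 fell (-0.96 ± 0.15, edgeR adjusted p = 0.0457). Neuronal markers had a median of -0.12 in EAE against naive (4 of 10 above 0) and 0.22 in treated against EAE (6 of 10). Striatal markers had medians of 0.08 (6 of 8 above 0) and -0.55 (0 of 8) in the same comparisons. Those of myelin had -0.32 (4 of 10) and 0.13 (6 of 10), and in these lists 0 genes were called. The part of other cells and of dissection in the members' levels was not tested.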

How the data were processed

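Members and gene lists were chosen with earlier results of these data known. Genes were named by role, abundance, largest change or a call. Rpl18, Rpl28, Rps9, Rps15a, Rps23, Rps23rg1 and others called by DESeq2 were named after their values were seen, and a few genes are not reported here by name. Per the series' design text, the authors trimmed reads with fastp, aligned them with Hisat2 and quantified them with bowtie2. The submitters' processing notes name FastQC 0.11.8 and the build mm10. The sources used here name no annotation, strand setting or rule for reads with several matches. What the authors deposited are raw counts per gene symbol. A further 9 columns matched no sample and were not used. Counts of 2 were 3.8 to 4.43 times as frequent as counts of 1, so that a count may be less than a fragment.

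The main test was the quasi-likelihood test of edgeR 4.0.16 under R 4.3.3 on all 9 libraries, with group as the only factor, a robust fit, TMM scaling and the filter filterByExpr, adjusted over 18644 genes at a threshold of 0.05. CPM are scaled with TMM factors (0.982 to 1.02). DESeq2 1.42.0 was an alternative, with others given at the end. Same-numbered treated and EAE libraries deviated together (correlations 0.175, 0.245 and 0.238), which is not so for every pair with naive, and no label ties the numbers. The fit was also run on simulated counts for EAE against naive. It called 33% of genes changed by a log2 fold change of 0.5 either way and 88% of those changed by 1. In the real data the members ranged from -0.34 to 0.44 in that comparison, so that most changes of their size would be missed. Coordinates and windows are RefSeq's for GRCm38.p6, and lengths are from GENCODE for GRCm38, with a length for 84 members.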

Additional observations from a re-analysis of the deposited data

How the results depend on the processing

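The median log2 fold change of the members kept its sign and moved by less than the replicate SD of 0.0605 under all 21 alternatives in EAE against naive (0.156 to 0.209) and in treated against EAE. The number of members called was less stable. In EAE against naive, where 184 of all genes were called, it was 12 with DESeq2 (1068 of all genes), 2 with length offsets (216), 2 with length offsets and a replicate block (285), 1 with the replicate block alone (238), 6 with the block and only the groups compared (726), 0 without replicate 1 of all groups (80), and 0 to 2 on leaving out single libraries (2 to 261). In treated against EAE it was 11 with DESeq2 (733 of all genes, 41 with edgeR) and 0 otherwise. The replicate block changed no other call on members. Over all genes it moved the count from 184 to 238 in EAE against naive and from 41 to 46 in treated against EAE, and 5 of 9 libraries correlated best with one of their own number. The blocked fit on the groups compared, the fit without replicate 1 of all groups, the counts with pseudogene rows added and the non-overlap under other settings were chosen after seeing the data.

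Under at least 1 alternative the direction turned in 10 of the 85 members in EAE against naive and in 5 in treated against EAE. In EAE against naive 6 turned without naive replicate 3 and 5 without EAE replicate 2. Besides the members named next, these were Rpl15 (-0.00364 without EAE replicate 2), Rpl21 (-0.0170 without naive replicate 3) and Rpl41 (-0.0670 without EAE replicate 2, -0.0793 without naive replicate 3), and Rpl41 in treated against EAE (0.0442 without EAE replicate 2), named after their values were seen. Without replicate 1 of all groups, EAE against naive was 0.233 for Rpl7a and -0.00409 for Rps27rt, and treated against EAE was -0.157 for Rps27a and 0.0613 for Rps19bp1. With length offsets, Rps19bp1 in treated against EAE was at 0.00677, and at 0.00645 with the block as well. On leaving out single libraries, the log2 fold change of EAE against naive ranged from -0.0436 to 0.626 for Rpl17, -0.0461 to 0.143 for Rpl22l1, -0.0734 to 0.188 for Rpl38, -0.265 to 0.109 for Rpl7a, -0.0700 to 0.0634 for Rps16 and -0.575 to 0.186 for Rps27a, turning without EAE replicate 2 for Rpl17, without EAE replicate 2, naive replicate 1 or naive replicate 3 for Rpl38 and Rps16, without EAE or naive replicate 1 for Rpl7a, and without naive replicate 3 for Rpl22l1 and Rps27a. In treated against EAE the ranges were -0.415 to 0.181 for Rpl17 and -0.204 to 0.00246 for Rpl38, turning without EAE replicate 2, and -0.0808 to 0.0560 for Rps19bp1 and -0.164 to 0.607 for Rps27a, turning without treated replicate 1. The cause was not tested beyond the libraries named. Most members differed by less than a 1.2-fold change, and 3 libraries a group limit the precision of such values.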
